A study of Mus musculus with 24 samples.

Results

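The 10 genes described here are transcription factors that set or mark photoreceptor fate, Otx2, Crx, Nrl, Nr2e3, Prdm1, Rorb, Thrb, Rxrg, Neurod1 and Mef2d. They were taken by symbol from count tables that list 126602 features, annotated mouse genes and newly assembled loci together, and each symbol matched 1 Ensembl gene identifier. RNA was sequenced from 24 mouse retinal organoids (MROs), sampled in groups of 6 on D20, D22, D25 and D30 of differentiation. Every MRO came from the wildtype mouse embryonic stem cell line E14Tg2a, carried the genotype named control, was made by the trisection protocol with the retinoic acid receptor agonist EC23 between D10 and D14, and received only water as solvent. Each library was 1 whole organoid, and all organoids came from 1 cell line and 1 independent experiment, so p-values measure the spread between these organoids only.

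Photoreceptors arise from retinal progenitors that leave the cell cycle and pass through a precursor stage. In the precursor, Otx2 opens the photoreceptor programme, Crx carries it on, and a rod-directing branch (Rorb, Nrl, Nr2e3) is set against a cone-directing branch in which the nuclear receptors Thrb and Rxrg act. Most mouse photoreceptors become rods, and the transient repressor Prdm1 keeps precursors from the bipolar fate.

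Counted reads per organoid lay between 13634846 and 19477108. In the retinal label check, levels are CPM (counts scaled to library size by TMM factors). The summed level of 6 rod markers went from a median of 490.5 CPM at D20 to 6149 at D30. Most of this sum was Sag, with medians of 479.9 CPM at D20 and 4301 at D30. Bipolar and Müller glia markers were also present. The summed level of 6 cone markers had medians of 259.5, 376, 313 and 84.1 CPM at D20, D22, D25 and D30. Most of the cone sum was Gngt2, which averaged 217, 354, 283 and 64.7 CPM, while Pde6h stayed at or below 0.121 CPM on average. Arr3 and Gnat2 averaged 2.51 and 13.05 CPM at D20 and 5.85 and 24.4 at D30. Opn1sw averaged 12.6 CPM at D20 and 1.71 at D30. Among pigment epithelium markers Dct averaged 151 CPM at D20 and 29.5 at D30, and Lrat 25.9 and 3.40. Tyr, Tyrp1 and Pmel went the other way, from 3.21, 3.14 and 2.48 CPM at D20 to 6.43, 13.9 and 7.25 at D30. These rises did not pass edgeR's quasi-likelihood test. Best1, Mlana and Rgr of the same list stayed at or below 0.4 CPM on average. Forebrain neuron markers were present at every timepoint, with a summed level between 48.8 and 535 CPM over all organoids. Slc17a7, 1 of these 8 markers, averaged 33.0, 54.7, 139 and 194 CPM at D20, D22, D25 and D30. Neurod6, which the authors place in postmitotic amacrine cells, averaged 40.0, 3.41, 76.0 and 93.7. Which cells held Slc17a7 and Neurod6 was not tested, so the sum cannot be read as forebrain cells alone.

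All 10 genes passed the filter on low values, with 29 counts or more in every organoid, and all 10 differed among the 4 timepoints by edgeR's quasi-likelihood test (adjusted p at most 0.00104), beside 27.2% of the 46949 features tested. Among annotated genes whose mean normalized count reached 100, as it did for all 10, the same share was 50.7%. The factors fell into 5 courses. Otx2, Rorb and Prdm1 were highest at D20 to D22 and fell from D22 onward. Nrl and Nr2e3 rose steeply between D20 and D22 and were highest on average at D25. Crx and Neurod1 had a flatter course with their highest means at D22 and D25. Mef2d and Thrb stood higher at D25 and D30 than at D20. Rxrg kept its low level until D25 and fell by D30. In these whole organoids, fewer cells of a type and less RNA per cell cannot be told apart.

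**Figure D1:**
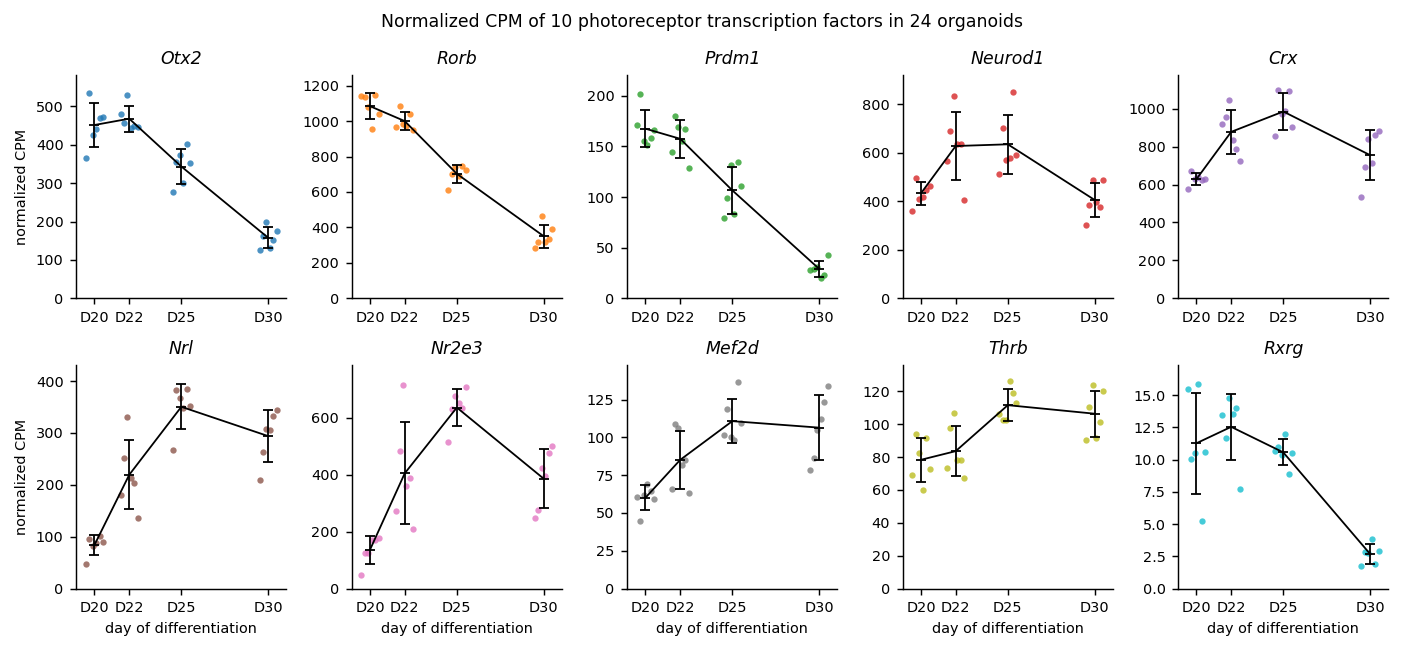
Normalized CPM (vertical axes, from 0) of each factor against the day of differentiation, 1 panel per gene. Points are the 6 organoids of a timepoint, and black bars are mean and SD; the Otx2, Rorb and Prdm1 points at D30 lie below every earlier organoid, and the Nrl points at D25 and D30 lie above every D20 organoid.

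Otx2 (chr14:48657677-48673819 in GRCm38), the homeobox factor needed for photoreceptor fate, lay at 364, 456 and 534 normalized CPM in the lowest, median and highest organoid at D20, and at 444, 453 and 530.2 at D22. At D25 these values were 278, 354 and 402, and at D30 127, 157 and 198. The D20 and D22 organoids overlapped, whereas every D25 organoid lay below every D22 organoid and every D30 organoid below every D25 organoid. Between D22 and D25 the log2 fold change was -0.45 ± 0.10, adjusted p = 0.00462 by edgeR's quasi-likelihood test, and between D25 and D30 it was -1.12 ± 0.11, adjusted p = 1.43e-08. From D20 to D22 it was 0.052 ± 0.10, adjusted p = 0.856, with an approximate 95% interval from -0.15 to 0.26. The D22 to D25 fall was lost, with adjusted p up to 0.0166 and log2 fold changes from -0.50 to -0.39, when D22 replicate 1 or 3 or D25 replicate 1 or 4 was left out. Its antisense neighbour Otx2os1 shares 154 exon bases on the opposite strand and held 11 to 188 counts, and the counting's strand setting was not given in the sources used here.

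Rorb (chr19:18930605-19111196), a nuclear receptor that acts upstream of Nrl in rods, had the highest mean CPM of the 10 at D20 and D22. Its lowest, median and highest organoids held 956, 1109 and 1146 CPM at D20, 949, 978 and 1087 at D22, 609, 713 and 749 at D25 and 282, 326 and 462 at D30. D20 and D22 overlapped and each later timepoint lay wholly below the one before. The log2 fold change was -0.51 ± 0.088, adjusted p = 2.70e-04 from D22 to D25 and -1.0 ± 0.089, adjusted p = 5.17e-09 from D25 to D30 (edgeR's quasi-likelihood test), and both calls held with each organoid left out in turn. Prdm1 (chr10:44437177-44528501), the zinc finger repressor known as Blimp1, followed the same course with a deeper late fall. It lay at 152, 163 and 201 CPM at D20 and 128, 161 and 180.5 at D22, then at 79.2, 105 and 135 at D25 and 20.5, 28.5 and 43.1 at D30. The D30 organoids all lay below the lowest D25 organoid, whereas the D25 range reached into that of D22. From D25 to D30 the log2 fold change was -1.87 ± 0.15, adjusted p = 3.72e-10, a level 3.66 times lower. The D22 to D25 fall of -0.56 ± 0.14, adjusted p = 0.0081 was near the threshold. It was lost in 10 of the 24 fits with 1 organoid left out (D20 replicate 3, D22 replicates 1 to 5, and D25 replicates 1, 2, 4 and 6, log2 fold changes from -0.64 to -0.49, adjusted p up to 0.028), and with edgeR's own filter on low counts (-0.53, adjusted p = 0.011).

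Nrl (chr14:55518978-55524981), the Maf-family leucine zipper factor that directs precursors to the rod fate, was at 47.5, 89.1 and 102 CPM in the lowest, median and highest D20 organoid. It reached 137, 208 and 331 at D22 and 268, 359.8 and 384 at D25, and lay at 208, 307 and 344 at D30. Every D22 organoid exceeded every D20 organoid, while D22 overlapped D25 and D25 overlapped D30. The first step was a log2 fold change of 1.38 ± 0.17, adjusted p = 9.17e-06 by edgeR's quasi-likelihood test, and it held with each organoid left out in turn (from 1.23 to 1.49). The second step, 0.68 ± 0.16, adjusted p = 0.00625, was a further rise, but the call was lost when D22 replicate 1, 4, 5 or 6 or D25 replicate 2, 3, 4, 5 or 6 was left out (log2 fold changes from 0.57 to 0.83, adjusted p up to 0.0214). It was also lost when only annotated genes set the scale (0.59, adjusted p = 0.0176). From D25 to D30 the value was -0.25 ± 0.16, adjusted p = 0.463, with an interval from -0.57 to 0.066.

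Nr2e3 (chr9:59942771-59960659), the nuclear receptor that acts after Nrl and represses cone genes in rods, had the largest coefficient of variation of the 10 at D20 and at D22. Its organoids lay at 48.3, 148 and 177 CPM at D20, 207, 375 and 715 at D22, 515, 642 and 706 at D25 and 246, 408 and 499.7 at D30. The highest D20 organoid was below the lowest D22 organoid, and all D30 organoids were below all D25 organoids. The rise from D20 to D22 was 1.57 ± 0.25, adjusted p = 1.74e-04 on the log2 scale by edgeR's quasi-likelihood test. Later steps missed the threshold, with 0.65 ± 0.24, adjusted p = 0.0773 from D22 to D25 and -0.72 ± 0.24, adjusted p = 0.0692 from D25 to D30. In a fit of the D25 and D30 organoids alone the last value was -0.72 with adjusted p = 0.00565. The D22 to D25 rise ran from 0.52 to 0.89 with each organoid left out, and was called without D22 replicate 3. From D20 to D25 the log2 fold change was 2.22 ± 0.25, adjusted p = 6.80e-08, the largest rise of any factor between 2 timepoints. The noncoding gene Gm15507 shares 61 exon bases with it and held at most 8 counts.

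Crx (chr7:15865947-15879968), the homeobox factor that turns on photoreceptor genes, changed far less than Nrl. It lay at 577, 628 and 672 CPM in the lowest, median and highest organoid at D20 and at 724, 877 and 1044 at D22. The D25 organoids held 858, 981 and 1096 and the D30 organoids 537, 777 and 885. All D22 organoids lay above all D20 organoids, and the other consecutive timepoints overlapped. The D20 to D22 rise was 0.48 ± 0.10, adjusted p = 0.00341 on the log2 scale by edgeR's quasi-likelihood test, and was lost without D20 replicate 1, D22 replicate 2 or D22 replicate 3 (log2 fold changes from 0.43 to 0.53, adjusted p up to 0.0159). The D25 to D30 value of -0.38 ± 0.10, adjusted p = 0.0143 missed the threshold and passed it without D25 replicate 1, without D30 replicate 6, without the low-count filter (-0.41, adjusted p = 0.00421) or with edgeR's own filter on low counts (-0.40, adjusted p = 0.00985).

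Neurod1 (chr2:79452521-79456751), a basic helix-loop-helix factor active in photoreceptors and other retinal neurons, held 361, 432 and 496 CPM at D20 and 404, 637 and 832 at D22. Its values were 513, 585 and 851 at D25 and 302, 390.2 and 488 at D30. D22 replicate 6, at 404, reached into the D20 range, and the D30 organoids all lay below the D25 organoids. From D20 to D22 the log2 fold change was 0.54 ± 0.13, adjusted p = 0.0158 by edgeR's quasi-likelihood test, and without D22 replicate 6 it was 0.64 and called. With all organoids it was called by DESeq2 (adjusted p = 0.00909), without the low-count filter (adjusted p = 0.00401) and with the compared timepoints alone (adjusted p = 0.00719). From D25 to D30 it was -0.65 ± 0.13, adjusted p = 0.00206, and only leaving out D25 replicate 5 took this call away (-0.55, adjusted p = 0.0102). Cerkl, a neighbouring protein-coding gene on the same strand with 579 to 6121 counts, shares 201 exon bases with Neurod1, which are 7.37% of its exon length.

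Mef2d (chr3:88142372-88172086), a MADS-box factor that acts with Crx at photoreceptor enhancers, lay at 44.7, 61.3 and 69.3 CPM at D20, 63.1, 83.4 and 109 at D22, 98.3, 105 and 136 at D25 and 78.6, 108 and 134 at D30. No D25 or D30 organoid lay within the D20 range, whereas D22 overlapped both sides. None of the 3 steps passed the test alone (0.50 ± 0.14, adjusted p = 0.03 from D20 to D22), but D25 exceeded D20 by 0.88 ± 0.14, adjusted p = 1.65e-05 on the log2 scale (edgeR's quasi-likelihood test). The antisense gene 1700113A16Rik shares 531 exon bases with Mef2d and held 3 to 28 counts.

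Of the cone-branch receptors, Thrb (chr14:17660261-18038090), the thyroid hormone receptor whose beta2 isoform directs the medium-wavelength cone, lay at 59.9, 77.8 and 93.8 CPM at D20 and 67.3, 78.1 and 107 at D22. It lay at 103, 109.5 and 126 at D25 and 90.7, 106 and 124 at D30. The D25 organoids were all above the D20 organoids, and the log2 fold change between them was 0.51 ± 0.12, adjusted p = 0.00164 by edgeR's quasi-likelihood test. The D22 to D25 value, 0.42 ± 0.12, adjusted p = 0.019, missed the threshold with edgeR and passed it with DESeq2 (0.44, adjusted p = 0.00727). It also passed in edgeR without D22 replicate 3. Counts were per gene, so the isoforms of Thrb were not separated. Rxrg (chr1:167598384-167639623), the retinoid X receptor that pairs with Thrb in cones, had the lowest level of the 10, with 29 to 240 counts per organoid. It lay at 5.26, 10.5 and 15.8 CPM at D20, 7.72, 13.5 and 14.8 at D22, 8.91, 10.6 and 12.01 at D25 and 1.77, 2.8 and 3.85 at D30. The first 3 timepoints overlapped and all D30 organoids were below them. Its fall from D25 to D30 was -1.98 ± 0.23, adjusted p = 5.50e-07, a level 3.94 times lower. At D30, then, the 2 cone-branch receptors stood on opposite sides of their D20 level, with 0.44 ± 0.12, adjusted p = 0.0035 for Thrb and -2.08 ± 0.23, adjusted p = 1.33e-08 for Rxrg. The Thrb call was lost without D20 replicate 4 or D30 replicate 3 (log2 fold changes from 0.38 to 0.50, adjusted p up to 0.0134), and when annotated genes alone set the scale (0.37, adjusted p = 0.017).

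Step by step, the direction of the called factors turned. From D20 to D22, 3 of 10 rose (Crx, Nrl, Nr2e3; DESeq2 also called Neurod1) and none fell by edgeR's quasi-likelihood test, with 0 falls at an unadjusted p under 0.05 and 0 by DESeq2, beside 1.62% of all features that rose and 0.285% that fell. From D22 to D25, 1 rose (Nrl) and 3 fell (Otx2, Prdm1, Rorb), beside 3.08% and 2.19%. From D25 to D30 none rose in edgeR, with 0 rises at an unadjusted p under 0.05 and 0 by DESeq2, and 5 fell (Otx2, Prdm1, Rorb, Rxrg, Neurod1), beside 1.76% and 1.75%. Among annotated genes whose mean normalized count reached 100, the shares that rose were 3.58%, 9.47% and 5.33% in the 3 steps. The shares that fell were 0.967%, 3.96% and 3.68%. The median log2 fold change of the 10 was 0.32, 0.091 and -0.68 in the 3 steps. That of all features was 0.025, -0.054 and -0.017. Without D22 replicate 6 the first step had 5 called factors, with Neurod1 and Mef2d added, and without D25 replicate 1 the second step had 2, Nrl and Rorb. Leaving out D22 replicate 1 or D25 replicate 4 left only Rorb called in the second step, and leaving out D22 replicate 4 or 5 or D25 replicate 2 or 6 left 2 factors.

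**Figure D2:**
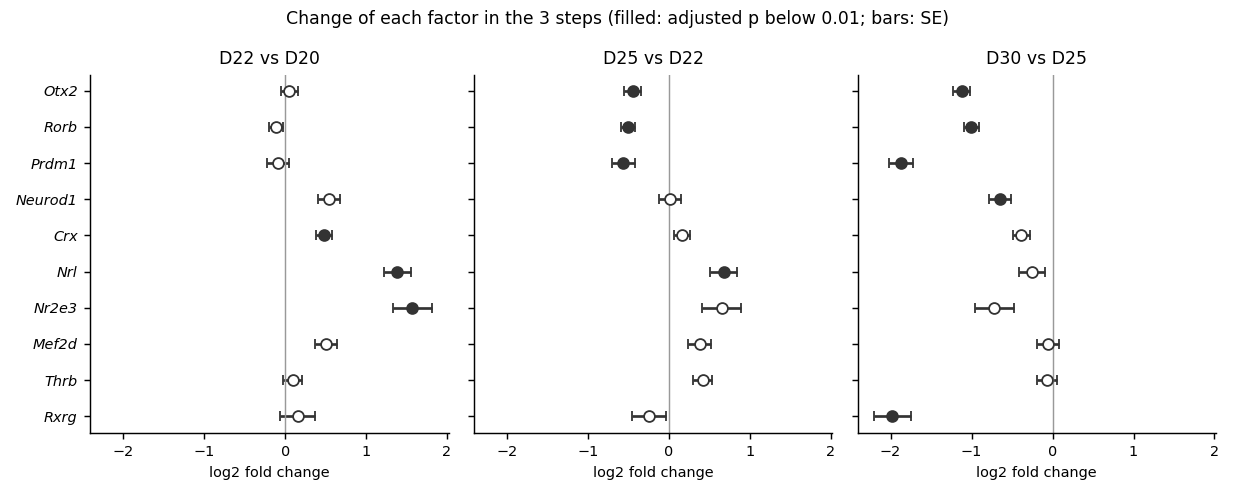
Log2 fold change (horizontal axes) of each factor in the 3 steps, 1 panel per step. Bars are the SE, and filled circles mark an adjusted p below 0.01: filled circles lie to the right of 0 in the first step, on both sides in the second and to the left in the third.

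Over the longer intervals, D25 against D20 had 6 factors higher (Crx, Nrl, Nr2e3, Thrb, Neurod1, Mef2d) and 3 lower (Otx2, Prdm1, Rorb), beside 8.50% and 6.61% of all features. D30 against D22 had none higher in edgeR, 3 at an unadjusted p under 0.05 (Nrl, Thrb, Mef2d) and 1 by DESeq2 or with its size factors in edgeR (Thrb), and 5 lower (Otx2, Prdm1, Rorb, Rxrg, Neurod1), beside 11.0% and 10.5%. Without D22 replicate 3, Nrl and Thrb were called higher at D30 than at D22. D30 against D20 had 4 higher (Nrl, Nr2e3, Thrb, Mef2d) and 4 lower (Otx2, Prdm1, Rorb, Rxrg), beside 13.9% and 13.0%. At D30, Nrl was 3.49 times its D20 level (1.80 ± 0.17, adjusted p = 5.66e-10 on the log2 scale) and Prdm1 5.75 times below it (-2.52 ± 0.15, adjusted p = 3.37e-14). Crx and Neurod1 did not pass the test between D20 and D30, with 0.26 ± 0.10, adjusted p = 0.0361 for Crx and -0.094 ± 0.13, adjusted p = 0.62 for Neurod1. Without D30 replicate 1, Crx passed it (0.35), as it did with DESeq2's size factors in edgeR (0.32, adjusted p = 0.00929). The D25 to D20 call of Otx2, -0.40 ± 0.10, adjusted p = 0.00522, was lost without D20 replicate 2 or 6 or D25 replicate 1 or 4 (adjusted p up to 0.02) or without the low-count filter (-0.37, adjusted p = 0.011), and that of Neurod1, 0.55 ± 0.13, adjusted p = 0.0026, without D20 replicate 1 or D25 replicate 5 (adjusted p up to 0.0122).

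Whether the last step differed from the first was tested as a contrast of its own, D30 minus D25 less D22 minus D20, which uses 4 separate groups of organoids. It was lower for 8 of 10 factors and higher for none by edgeR's quasi-likelihood test, with 0 higher at an unadjusted p under 0.05 and 0 by DESeq2, beside 1.67% of all features that were lower and 0.809% that were higher. Nr2e3 had the most negative value, -2.29 ± 0.34, adjusted p = 6.91e-05, followed by Rxrg at -2.13 ± 0.31, adjusted p = 4.39e-05 and Prdm1 at -1.79 ± 0.20, adjusted p = 1.30e-06. Nrl was at -1.64 ± 0.23, adjusted p = 3.33e-05. Thrb and Mef2d did not pass, at -0.16 ± 0.17, adjusted p = 0.674 and -0.56 ± 0.20, adjusted p = 0.091. These 8 calls held with every organoid left out in turn. In this contrast 3.02% of the annotated genes whose mean normalized count reached 100 were lower and 2.57% higher.

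Levels between genes were compared per kilobase of merged exons. Crx was highest at every timepoint, with a mean of 199, 278, 312 and 239 CPM per kilobase, and Rxrg lowest, with 4.91 at D20 and 1.16 at D30. At D20 the order was Crx, Neurod1, Otx2, Rorb, Nr2e3, Prdm1, Nrl, Thrb, Mef2d and Rxrg. In that order the organoid ranges of Otx2 and Rorb, Nr2e3 and Prdm1, Nrl and Thrb, and Thrb and Mef2d overlapped, and the other neighbours were separate. At D22 it was Crx, Neurod1, Nr2e3, Otx2, Rorb, Nrl, Prdm1, Mef2d, Thrb and Rxrg, with separate ranges only below Otx2, Rorb, Prdm1 and Thrb. At D25 the order was that of D22. Nr2e3 (189) stood apart from Otx2 (81.3) below it, Nrl (61.6) from Prdm1 (19.1), and Thrb from Rxrg, and the other neighbours overlapped. At D30 the order was Crx, Neurod1, Nr2e3, Nrl, Otx2, Rorb, Mef2d, Thrb, Prdm1 and Rxrg, and the ranges parted below Nr2e3, Rorb, Thrb and Prdm1. Nrl thus moved from the seventh to the fourth place and Prdm1 from the sixth to the ninth. With the longest transcript as the length, Otx2 stood above Neurod1 at D20, above Nr2e3 at D22 and above Nrl at D30, Nr2e3 above Neurod1 at D25, and Mef2d above Prdm1 at D25.

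Ratios of a pair of factors within the same organoid do not depend on the depth of its library. They are ratios of CPM, not per length. Crx over Otx2 was 1.41 ± 0.12 (mean ± SD, n = 6) in D20 organoids, 1.87 ± 0.164 in D22, 2.9 ± 0.305 in D25 and 4.82 ± 0.652 in D30 organoids. No organoid of one timepoint overlapped another in this ratio. Nrl over Crx was 0.133 ± 0.0271, 0.246 ± 0.0475, 0.355 ± 0.0272 and 0.39 ± 0.0214, and only D22 with D25 and D25 with D30 overlapped. Nr2e3 over Nrl was 1.57 ± 0.369, 1.78 ± 0.259, 1.82 ± 0.149 and 1.29 ± 0.16, and its D30 organoids lay below all D22 and D25 organoids. Otx2 over Prdm1 lay between 2.13 and 3.58 until D25 and between 4.07 and 6.49 at D30. Thrb over Rxrg was 10.7 ± 1.4 at D25 and 42.2 ± 10.7 at D30. These ratios are descriptions with no test.

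**Figure D3:**
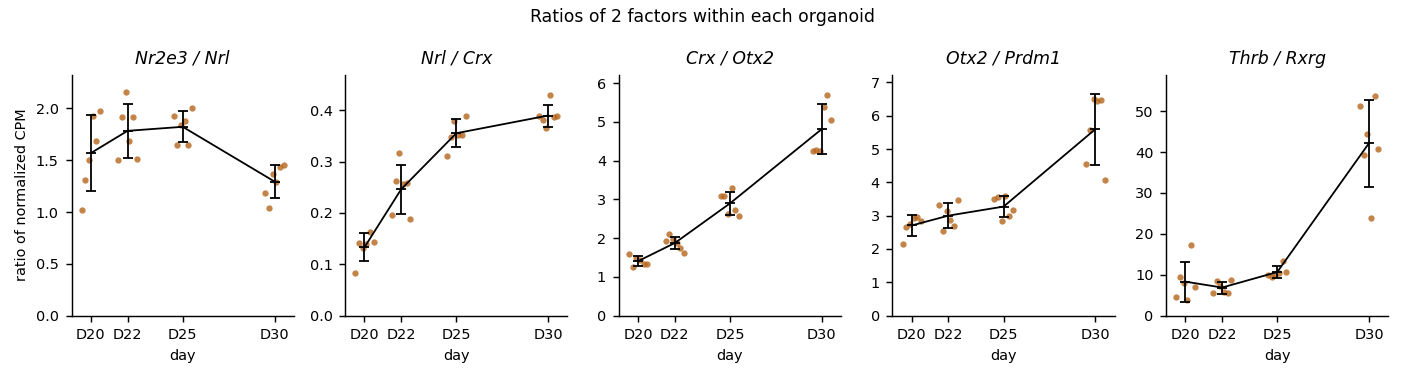
Ratio of the normalized CPM of 2 factors (vertical axes, from 0) within each organoid, by day. Points are organoids and black bars mean and SD of 6; Crx over Otx2 climbs without overlap between timepoints, and Nr2e3 over Nrl is lower at D30 than at D22 and D25.

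Within a timepoint the factors were often high or low in the same organoid. D22 replicate 6 was the lowest of its 6 for 9 of 10 factors, all but Otx2, and D22 replicate 3 the highest for 7. D30 replicate 1 was the lowest for 9, all but Prdm1, and D30 replicate 6 the highest for 6. D25 replicate 1 was the lowest for 7, and D20 replicate 1 for 5. Nr2e3 differed most, from 207 to 715 CPM between D22 replicates 6 and 3, while Rorb ran from 949 to 986 in the same pair. The coefficient of variation at D22 was 44.4% for Nr2e3, 30.3% for Nrl, 7.15% for Otx2 and 5.21% for Rorb.

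The same organoids also stood out in markers of other cell types. D30 replicate 1 had the highest summed level of 8 Müller glia markers, 4417 CPM against a D30 median of 2685. It was also highest for progenitor markers (480 against 332) and pigment epithelium markers (105 against 66.5), and lowest for rods, cones and bipolar cells. D22 replicate 6 was highest for Müller glia (1044 against 907) and pigment epithelium (241 against 163), and lowest for rods. D20 replicate 1 was likewise highest for both and lowest for rods. The rod sums were mostly Sag. Of the Müller glia sums, Dkk3 alone held 506 CPM in D22 replicate 6 and 811.5 in D20 replicate 1. Of the pigment epithelium sums, Dct held 215.7 and 190.1 CPM in these organoids. Apoe also peaked in D22 replicate 6, and Glul and Tyr in D20 replicate 1. Rlbp1 peaked instead in D22 replicate 3 and D20 replicate 4, and at D22 Glul peaked in replicate 1 and Tyr in replicate 5. D25 replicate 1 was instead highest for forebrain neuron markers, at 535 CPM against a median of 246. Across timepoints the Müller glia sum ran from 1014 to 1285 at D20 and from 1432 to 4417 at D30, with 6 of 8 markers higher and 1 lower at D30. Among all annotated genes tested, 25.1% were higher and 16.7% lower at D30 than at D20. Of the progenitor markers 7 of 8 were lower at D30 than at D20, and of the bipolar markers 6 of 8 were higher and 1 lower. Rod markers were all higher, 6 of 6, and of the 5 cone markers tested 2 were higher and 2 lower. Pigment epithelium markers had 2 of 5 tested lower, amacrine and horizontal markers 2 of 7 higher and 1 lower, and forebrain markers 1 of 8 higher, Slc17a7. Their part in the courses of the 10 factors was not tested.

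**Figure D4:**
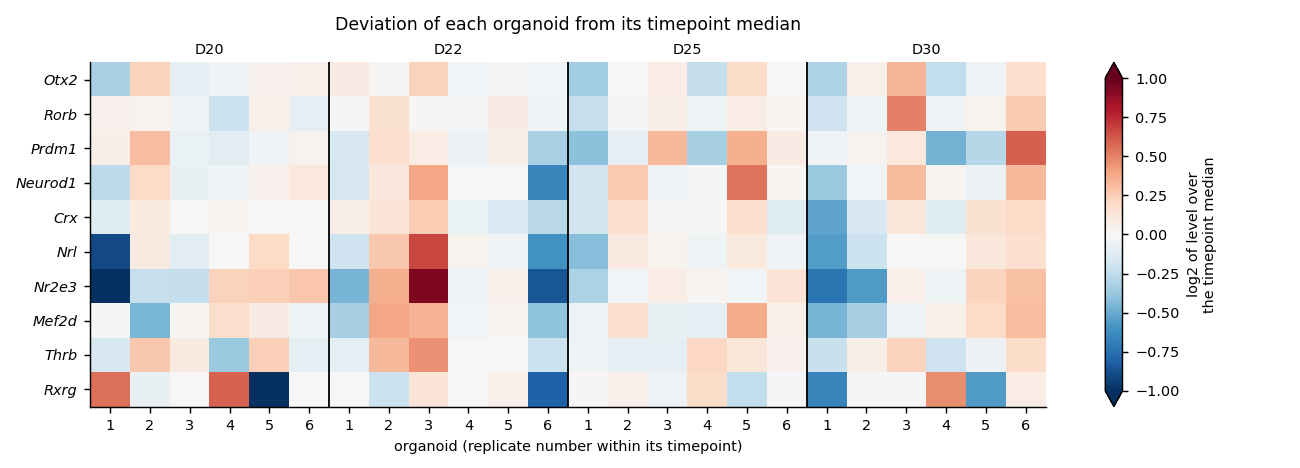
Log2 of each organoid's level over the median of its timepoint (colour, cut at 1 in either direction), for the 10 factors (rows) and 24 organoids (columns). Blue columns at D20 replicate 1, D22 replicate 6, D25 replicate 1 and D30 replicate 1 mark organoids that were low in many factors, and D22 replicate 3 is red in most rows.

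Rod genes code for phototransduction and the outer segment and include known targets of Nrl, Nr2e3 and Crx. Of 16 such genes, 8 rose from D25 to D30, a step in which none of these 3 factors rose. All 16 were higher at D30 than at D20, beside 25.1% of the annotated genes tested. Their median log2 fold change was 3.5, and the median of all features was -0.038. In the 3 steps, 13, 16 and 8 of these 16 rose and none fell in edgeR, with 0 falls at an unadjusted p under 0.05 and 0 by DESeq2. Of the annotated genes tested, 2.56%, 7.33% and 4.55% rose in these steps and 0.763%, 2.92% and 2.83% fell. From D25 to D30, the step in which no factor rose, Gnat1 (rod transducin) went from 9.63 to 269 CPM (4.81 ± 0.32, adjusted p = 2.78e-11 on the log2 scale by edgeR's quasi-likelihood test). In that step Pde6a rose by 3.06 (adjusted p = 1.20e-10) and Cnga1 by 1.81 (adjusted p = 4.15e-04). The other 8 were not called, among them Pde6b at -0.0096 (adjusted p = 0.989) and Sag at 0.45 (adjusted p = 0.428). The values for Nrl, Nr2e3 and Crx in the same step were -0.25, -0.72 and -0.38. Late minus early, 3 rod genes were lower in edgeR (Pde6b, Cngb1, Rcvrn) and none higher, with 3 higher at an unadjusted p under 0.05 and 1 by DESeq2. Of the annotated genes tested, 2.29% were lower and 2.21% higher.

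**Figure D5:**
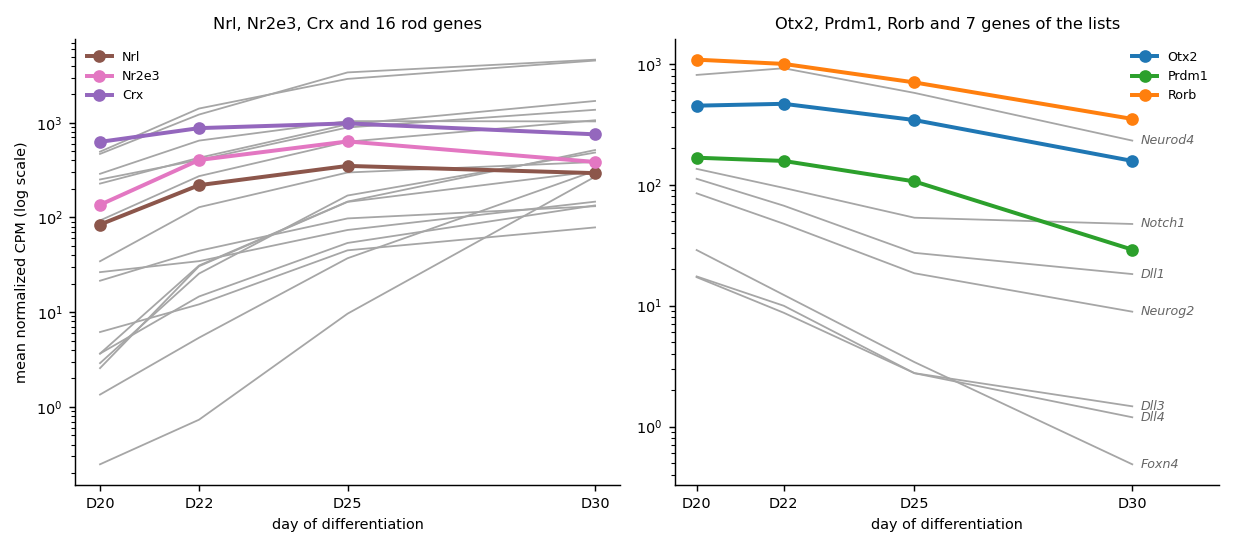
Mean normalized CPM of 6 organoids (log scale) by day. Left, Nrl, Nr2e3 and Crx (colours) with 16 rod genes (grey); right, Otx2, Prdm1 and Rorb with 7 genes picked from the 2 regulator lists after their values were seen; the grey rod lines mostly keep climbing to D30 where the coloured lines do not.

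Of 14 cone genes, 12 were tested, since Opn1mw and Pde6h were near 0. From D20 to D30, 5 were higher and 5 lower, beside 13.9% and 13.0% of all features. For the annotated genes tested these shares were 25.1% and 16.7%. Gucy2f, a photoreceptor guanylate cyclase, rose from 0.0117 to 42.9 CPM. No fold is given, since at D20 it lay below the level of 3 counts. Its means at D22 and D25 were 0.381 and 2.14 CPM. The rod gene Gnat1 had means of 0.247, 0.732, 9.63 and 269 CPM at the 4 timepoints. Whether cones or rods held Gucy2f was not tested. Opn1sw, the short-wavelength cone opsin, fell from 12.6 to 1.71 CPM (-2.88 ± 0.34, adjusted p = 5.24e-08 on the log2 scale by edgeR's quasi-likelihood test). Kcne2 also fell (-2.47, adjusted p = 5.45e-08), and Guca1a rose (2.26, adjusted p = 8.82e-06). Arr3 (1.22, adjusted p = 0.00158) and Gnat2 (0.90, adjusted p = 0.004985) rose too. In the last step Rxrg fell by 1.98 on the log2 scale. Of the cone list, 4 genes fell in this step (Opn1sw, Gngt2, Kcne2, Ccdc136), 1 rose (Gucy2f) and 7 were not called. Among the annotated genes tested, 2.83% fell and 4.55% rose in this step. Gngt2, Ccdc136, Arr3, Gnat2 and the 3 rod genes Pde6b, Cngb1 and Rcvrn were named after their values were seen.

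Cofactors and fate modifiers made a list of 28 genes, of which 27 were tested and Ikzf1 had 0 counts in every organoid. In the steps 4, 5 and 2 rose, beside 2.56%, 7.33% and 4.55% of the annotated genes tested. In the same steps 2, 9 and 5 fell, beside 0.763%, 2.92% and 2.83%. Samd7, a polycomb-linked partner of the rod programme, had means of 141, 301, 456 and 408 CPM, and Samd11 19.8, 75.3, 174 and 168. Samd7, Samd11, Pias3 (the SUMO ligase that acts on Nr2e3) and Casz1 all rose in each of the first 2 steps, as Nrl did, and the last step was lower than the first for all 4 (Samd11 -1.97 ± 0.34, adjusted p = 4.10e-04, edgeR's quasi-likelihood test). Esrrb, a nuclear receptor of rods, instead rose in the last step, from 0.648 to 9.87 CPM (3.91 ± 0.62, adjusted p = 8.59e-05).

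Among the modifiers known from earlier stages, Dll1, a Notch ligand, fell from 112 to 18.2 CPM (-2.62 ± 0.18, adjusted p = 9.32e-13 on the log2 scale by edgeR's quasi-likelihood test). The proneural factor Neurog2 went from 85 to 8.92 (-3.25 ± 0.22, adjusted p = 9.30e-13), and Foxn4 from 28.8 to 0.487 (-5.87 ± 0.36, adjusted p = 5.50e-14). Notch1, Dll3, Dll4, Hes1, Onecut1, Onecut2, Tbx2, Rax and Pou2f2 were lower at D30 than at D20 too. Dll1 and Foxn4 had already fallen by D22, the step in which Otx2, Prdm1 and Rorb were at 0.052, -0.088 and -0.12. Nr2f1, Nr2f2, Olig2, Lhx4, Sall3, Isl1 and Pou2f1 did not pass the test between D20 and D30. Vsx1, Nr1d1 and Prdm8 were higher.

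Among 17 relatives of the 10 factors, 5 were higher and 4 lower at D30 than at D20, beside 28.5% and 19.6% of the annotated genes whose mean normalized count reached 100. None passed edgeR's test in the first step, with 7 at an unadjusted p under 0.05 and 1 by DESeq2. Neurod4 fell beside Otx2 (-0.68 from D22 to D25, adjusted p = 0.00324, and -1.31 from D25 to D30, adjusted p = 7.64e-07, edgeR's quasi-likelihood test). Rora, a relative of Rorb, was higher at D30 than at D20 (0.44 ± 0.10, adjusted p = 3.89e-04), as were Rxra (0.49 ± 0.13, adjusted p = 0.00249) and Mef2a (0.78 ± 0.091, adjusted p = 3.96e-08). Thra and Rxrb did not pass (0.35 ± 0.18, adjusted p = 0.134 and -0.24 ± 0.14, adjusted p = 0.19). Between D22 and D25 Mef2c rose from a median of 4.62 CPM (3.04 to 8.78) to 55.2 (6.9 to 628), with ranges that overlapped. Its D25 mean was 187 CPM, and 99.2 without D25 replicate 1, the organoid with the highest forebrain marker sum. Neurod2, Neurod6 and Otx1 rose in the same step too, from D22 means below those at D20. Neurod2 averaged 9.24, 1.34 and 15.8 CPM at D20, D22 and D25, and Otx1 1.24, 0.125 and 1.43. On average, Otx1 at D22 lay below the level of 3 counts. Neurod2 and Neurod6 also stand on the forebrain marker list, whose sum moved from a median of 73.2 to 246 CPM. The authors place Neurod6 in postmitotic amacrine cells. Slc17a7 of that list went from a mean of 54.7 to 139 CPM in this step. The part of forebrain cells in the Mef2c, Otx1, Neurod2 and Neurod6 values was not tested.

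As a description over 24 organoids, which share timepoints and an experiment, the annotated genes most like each factor were sought among 10829 by Pearson r of log2 CPM. Otx2 was most like Neurod4 (r = 0.979), Prdm1 (0.976) and Rorb (0.972), so that 2 of its 3 nearest genes were members of the set. Prdm1 and Rorb named each other (0.973), Otx2 and Ccdc60 (0.969 and 0.971). Among the genes most like Nrl were Samd7 (0.99) and Akap1 (0.98), and those most like Nr2e3 were Pitpnm3 (0.968), Rraga (0.961) and Ebpl (0.958). Crx was nearest to Ndrg1 (0.948), Ttyh2 (0.935) and Cecr2 (0.91), and Neurod1 to Srrm4 (0.916), Acsl1 (0.914) and Myocd (0.913). For Rxrg the nearest were Dgkh (0.932), Mtus2 (0.92) and the cone opsin Opn1sw (0.892). For Mef2d they were BC034090 (0.963), Peli3 (0.943) and Tob2 (0.943), and for Thrb Tmem243 (0.879), Wdr35 (0.879) and 2510009E07Rik (0.877). Between members, Nrl and Nr2e3 had r = 0.957, whereas Nrl and Otx2 had r = -0.413.

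The proximal promoters of the 10 genes were read from RefSeq windows of GRCm38.p6, 250 bases before to 50 after each start. There were 16 such windows, since Otx2 has 4 starts and Rorb, Thrb and Rxrg 2 each. Both strands were searched for TAATCC (bound by Otx2 and Crx), TGCTGAC (the core of the Nrl response element), AGGTCA (an element of nuclear receptors such as Rorb and Thrb) and CAGATG (an E box of factors such as Neurod1). None of these 4 strings overlapped another in the matches found. TAATCC stood in 3 of the 16 windows (Otx2, Crx, Thrb) and in 7.06% of the 32851 windows of all genes. TGCTGAC stood in 1 (Rorb) and in 4.67% of all, AGGTCA in 2 (Thrb, Rxrg) and in 16.3%, and CAGATG in 2 (Otx2, Nrl) and in 17.2%. The windows of Nr2e3, Prdm1, Neurod1 and Mef2d held none of the 4. Stretches with matches of 5 factors are shown 5′ to 3′ on the strand of the gene, with matched letters in capitals, since these are factors that rose early (Crx, Nrl), fell late (Rorb, Rxrg) or stood higher at D30 than at D20 (Thrb). Crx has its own family's core in both places, on the reverse strand as GGATTA, starting 94 and 21 bases before the start. Rorb has the Nrl core 77 bases before its start, Nrl the E box 19 bases before its start, Thrb the nuclear receptor element 184 bases before its start and Rxrg 88 bases before. The TAATCC match of Thrb, 46 bases before its start, lies outside the stretch shown. The Nrl stretch lies before the RefSeq start but overlaps 2 exons of the GENCODE annotation, and the other stretches overlap none.
Crx (chr7:15879969-15880088, minus strand): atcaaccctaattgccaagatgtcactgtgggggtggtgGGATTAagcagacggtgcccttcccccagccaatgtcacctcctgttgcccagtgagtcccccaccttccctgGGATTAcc
Nrl (chr14:55524254-55524283, minus strand): gctcgaggaccaCAGATGatctcagggaac
Rorb (chr19:19111197-19111316, minus strand): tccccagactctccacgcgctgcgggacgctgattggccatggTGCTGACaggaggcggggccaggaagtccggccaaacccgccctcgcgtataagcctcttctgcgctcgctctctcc
Thrb (chr14:17660746-17660805, plus strand): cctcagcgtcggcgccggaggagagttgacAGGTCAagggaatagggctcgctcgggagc
Rxrg (chr1:167618135-167618254, plus strand): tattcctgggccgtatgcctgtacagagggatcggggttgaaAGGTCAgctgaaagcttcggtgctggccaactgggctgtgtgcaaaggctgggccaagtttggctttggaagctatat
A match is a description of the letters in a window, and its absence says nothing of the factor. Since Prdm1 and Nr2e3 held none of the 4 strings, the search could not show a string shared by Prdm1 and Rorb or by Nrl and Nr2e3.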

How the data were processed

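The authors lysed each MRO, removed ribosomal RNA, made strand-specific single-end libraries and, per their methods, demultiplexed with bcl2fastq (2.20), trimmed with cutadapt (1.5), aligned to GRCm38/mm10 with hisat2, assembled new transcripts with stringtie (1.3.3) and counted reads per gene or new transcript with htseq-count (0.6.1). The deposited values are these raw counts, and the strand setting of the counting was not given in the sources used here. Reads that the files list as lying in no feature or in several were left out of library sizes and tests, and made up 38.1% to 49.4% of the reads counted or so listed.

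Features with a mean normalized count of at least 10 (46949) were tested with edgeR (4.0.16, R 4.3.3) by TMM scaling and the quasi-likelihood test, in 1 fit of 24 organoids with timepoint as the only term and Benjamini-Hochberg adjustment over all features. The threshold was 0.01, and SE is the log2 fold change divided by the root of its F value. Counts are discrete reads, so 3 counts correspond to 0.154 to 0.22 CPM, and p-values cover the spread between organoids of 1 experiment. The test was checked on simulated data. Groups and replicate numbers came from the sample titles. Alternatives were DESeq2 (1.42.0), its size factors, other filters, a fit limited to annotated genes, a block for replicate number, the compared timepoints alone and each organoid left out. No 2 libraries of a timepoint agreed within sampling noise. Gene coordinates are those of GENCODE M21 on GRCm38, and promoters those of RefSeq. Likeness used log2(CPM + 0.5).

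The 10 genes and all lists were chosen with earlier results of these data known. All members, and every tested gene of the lists of cofactors and relatives, could be named. From the other lists the 4 genes with the largest called change between D20 and D30 were named, and for each member up to 3 most similar genes. Further genes of these lists, among them Tyr, Rlbp1 and Apoe, were named after their values were seen. Some genes are not reported here.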

Additional observations from a re-analysis of the deposited data

Results flagged for a closer look

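In 2 of the 40 groups of 6 organoids (10 factors at 4 timepoints), 1 organoid lay far from the others by Dixon's test at the 95% level, and chance flags about 1 in 20 groups. Both were Nrl, and both were the lowest organoid. At D20, replicate 1 held 47.55 CPM of Nrl, the next organoid 82.26, and this gap was 0.636 of the whole range. At D25, replicate 1 held 267.5 CPM, the next 348.3, and the gap was 0.692 of the range. The same 2 organoids were the lowest for Nr2e3, Crx, Otx2 and Neurod1, without passing this limit. With each organoid left out in turn, the log2 fold change of Nrl from D20 to D22 ran from 1.23 to 1.49 and stayed called, and that from D22 to D25 ran from 0.57 to 0.83 and lost its call in 9 of 24 fits.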

How the results depend on the processing

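All 54 counts of called factors stayed within 1.5 times their value under alternatives that changed the test, scaling, filter, features, samples or replicate block. With each organoid left out, 2 to 5 factors were called from D20 to D22 and 1 to 4 from D22 to D25, where 7 single organoids moved the count by more than 1.5 times, and the other counts stayed within 1.5 times. Of 480 fold changes under the first kind of alternative, 463 kept direction and side of the threshold, 4 lost the call and 10 gained it. Direction turned for Neurod1 from D22 to D25 (-0.072 with annotated genes only) and for Nr2e3 from D22 to D30 (0.00162 with DESeq2 and 0.00165 with its size factors), and both values lie near 0. Of 1680 with an organoid left out, 1623 kept both, 35 lost the call, 9 gained it and 13 turned. The ranges that crossed 0 were -0.016 to 0.11 for Otx2 and -0.0041 to 0.27 for Rxrg (D20 to D22), -0.085 to 0.11 for Neurod1 (D22 to D25), -0.13 to 0.017 for Mef2d (D25 to D30), -0.25 to 0.027 for Rxrg (D20 to D25) and -0.20 to 0.17 for Nr2e3 (D22 to D30). None of these 6 was called with all organoids.

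The replicate block called 3, 4 and 5 factors in the 3 steps, as without it. Organoids with the same number did not deviate together, since 1 of 36 pairs had a correlation above 0.1, the median was 0.01, and 7 of 24 organoids correlated best with their own number. Of 216 list counts 201 stayed within 1.5 times. The exceptions were mostly small counts: cone genes from D20 to D22 (1 against 2 to 3), cofactors in the same step (6 against 12 with the compared timepoints alone), relatives (0 against 1 to 3 from D20 to D22, 5 against 3 with the replicate block from D22 to D25, 4 against 1 from D25 to D30, 1 against 2 in late minus early) and rod genes in late minus early (3 against 5). DESeq2 called 1605 features from D20 to D22 and edgeR 894. With annotated genes only, their median moved by -0.14 from D22 to D30, and the share of rises among called annotated genes went from 71.5% to 51.3% from D22 to D25, from 61.6% to 50.0% from D25 to D30 and from 67.5% to 51.7% from D22 to D30. The cause was not tested. Rxrg, with 29 to 56 counts at D30, is the factor most limited by depth.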
